A study of Mus musculus with 2 samples.

Results

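The mouse genome carries its Hox genes in 4 clusters, HoxA on chromosome 6, HoxB on chromosome 11, HoxC on chromosome 15 and HoxD on chromosome 2. The peaks described here are those of the transcription factor Ehf, mapped by ChIP-seq in mouse corneal epithelium, whose midpoint lies in the mm9 windows chr6:52100000-52270000, chr11:96030000-96240000, chr15:102745000-102870000 or chr2:74480000-74610000. They numbered 28 of the 15384 peaks of the deposited list, 8 in HoxA, 6 in HoxB, 3 in HoxC and 11 in HoxD. The windows were chosen by gene cluster with the peak positions of this list already known, and the members were selected on those same positions. Counts, densities, widths and scores are therefore given as a description of the list, with no test.

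The study measured where Ehf binds in the corneal epithelium, the outer cell layer of the cornea. The tissue, freed with dispase, came from 15 pooled mice of wild-type genotype, 2 to 3 months old. For the Ehf ChIP, 24 ug of their sonicated chromatin was taken and the antibody was ESE-3A (E-15), ESE-3 being another name of Ehf. A library of the Ehf ChIP and one of input chromatin, made without antibody from the same kind of tissue, were read from 1 end over 50 bp. The labels give the strain both as CB6 and as C57Bl/6. Each group had a single library and the peak list came from the Ehf ChIP, so no spread between mice or libraries can be given. The list holds no read counts, so the depth behind each peak is unknown, and no marker of cell type can be checked in it.

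Hox genes encode homeodomain transcription factors that give body regions their identity along the head-to-tail axis. The 4 clusters arose by duplication of an ancestral cluster, and genes with the same number in different clusters are paralogues. Within a cluster the order of the genes follows the order in which they are used along the body, with low numbers active towards the head and high numbers towards the tail, the limb tips and the genital region. Ehf belongs to the ETS family, whose members bind DNA at sites built around the core GGAA.

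A RefSeq gene table of the assembly GRCm38.p6, a later build than mm9, was used only for names, order and cluster lengths. It lists 39 Hox genes. Along increasing coordinates HoxA has its low-numbered genes first and ends with Hoxa13, HoxB from Hoxb13 to Hoxb1 (10 genes), HoxC from Hoxc13 to Hoxc4 (9 genes) and HoxD from Hoxd13 to Hoxd1 (9 genes). From the first to the last gene the clusters span 174 kb for HoxB, 116 kb for HoxC and 96.9 kb for HoxD in that build, each less than the length of its mm9 window (210, 125 and 130 kb). The sides named below are sides of a window, and a peak there may lie beyond the genes. Peaks were not assigned to single genes, exons or introns, because no annotation of mm9 was used here.

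The sequence under the peaks is likewise not shown, since no mm9 sequence was used. Since most peaks of the HoxD and HoxA windows lay on their low-coordinate sides, the 250 bases before the start site are printed for the first gene of each cluster, in order of coordinate, that has an entry in the RefSeq promoter table (GRCm38.p6). These are Hoxd13, which patterns the digits (plus strand, chr2:74667975-74668224 of GRCm38.p6), and Hoxa2, which patterns the second pharyngeal arch (minus strand, chr6:52164832-52165081 of GRCm38.p6). Both are written 5′ to 3′ along the gene, with the ETS core in capitals as GGAA or, on the opposite strand, TTCC. These GRCm38.p6 positions cannot be set against the mm9 positions of the peaks.
Hoxd13: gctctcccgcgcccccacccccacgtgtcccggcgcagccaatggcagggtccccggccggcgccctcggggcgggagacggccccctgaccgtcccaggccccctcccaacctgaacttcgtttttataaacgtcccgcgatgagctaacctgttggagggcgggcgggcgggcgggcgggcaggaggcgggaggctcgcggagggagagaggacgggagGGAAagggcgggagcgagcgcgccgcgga
Hoxa2: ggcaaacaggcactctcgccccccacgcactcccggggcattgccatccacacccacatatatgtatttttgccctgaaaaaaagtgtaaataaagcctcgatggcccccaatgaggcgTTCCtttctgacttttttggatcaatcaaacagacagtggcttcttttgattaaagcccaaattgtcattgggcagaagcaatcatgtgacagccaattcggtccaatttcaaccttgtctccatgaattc

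Each of these stretches holds 1 copy of the core. The promoter table had entries for 22 of the 39 Hox genes (9 of HoxA, 3 of HoxB, 1 of HoxC and 9 of HoxD), with 24 promoters of 250 bases before to 50 after a start site. The core GGAA was present on either strand in 22 of these 24 promoters (91.7%), against 96.0% of all 32851 promoters of the table. The promoters without it belonged to Hoxd9 and Hoxd11. Counted by gene, 21 of the 22 had at least 1 promoter with the core, so only 1 of these genes lacked it in every listed promoter. The longer ETS sequence CCGGAAGT, which contains the core, was found in 0 of the 24 and in 3.89% of all promoters. ACCGGAAGT, which contains both, was found in 0 of the 24 and in 1.10% of all. These counts describe letters in the promoters and are not tied to any peak.

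The HoxD window had the most Ehf peaks of the 4, 11 in 130 kb or 84.6 per Mb, against 6.56 per Mb for chromosome 2 as a whole. HoxA followed with 8 peaks in 170 kb, 47.1 per Mb against 5.10 for chromosome 6. HoxB had 6 peaks in 210 kb, 28.6 per Mb against 8.90 for chromosome 11, and HoxC had 3 peaks in 125 kb, 24.0 per Mb against 6.58 for chromosome 15. The density in the window was thus 12.9 times that of the chromosome for HoxD (95% exact binomial interval 6.45 to 23.0), 9.23 times for HoxA (3.996 to 18.1), 3.65 times for HoxC (0.753 to 10.6) and 3.21 times for HoxB (1.18 to 6.97). The intervals cover counting error only, and those of all 4 windows overlapped one another. The 4 windows together make up 0.0239% of the chromosomes and held 0.182% of the peaks.

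Every window of the same length on the same chromosome, started each 10 kb between its first and last peak and not touching the Hox window, served as the background. No other window of 130 kb on chromosome 2 reached the 11 peaks of HoxD (0 of 17801 windows, 0%), and the highest count among them was 9. The 8 peaks of HoxA were reached by 25 of 14578 windows of 170 kb on chromosome 6 (0.171%), which lay in 4 separate places and held at most 10. The 6 peaks of HoxB were reached by 7.12% of 11754 windows on chromosome 11, in 44 places, and the 3 peaks of HoxC by 10.5% of 9998 windows on chromosome 15, in 57 places. HoxD and HoxA thus stood at the end of the counts on their chromosomes, and HoxB and HoxC lay within them. Neighbouring windows overlap and can include unsequenced stretches. With windows without any peak left out, the share reaching the Hox count was 0.362% for HoxA, 10.49% for HoxB and 24.6% for HoxC, and it was again 0% for HoxD. The median window held 0 peaks on chromosomes 2, 6 and 15 and 1 on chromosome 11.

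**Figure D1:**
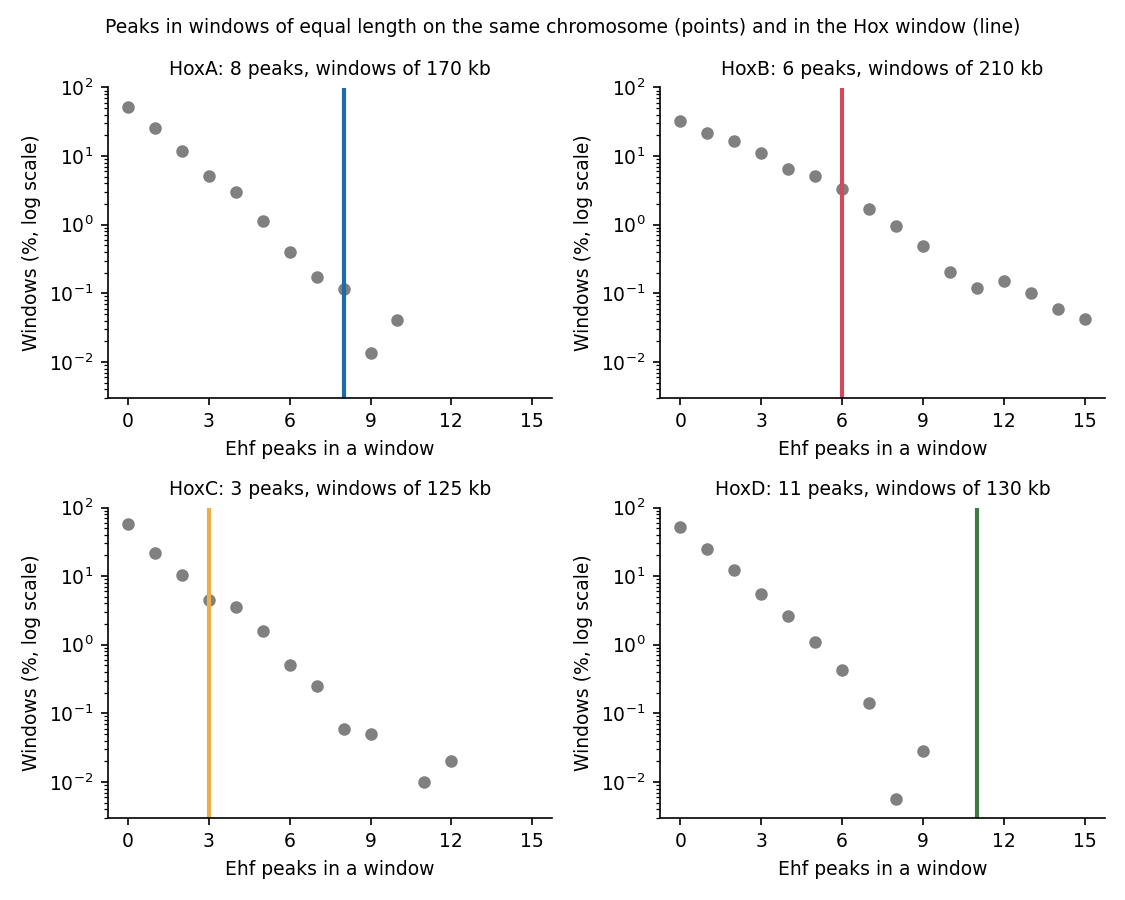
Share of windows of equal length on the same chromosome (percent, log scale, grey points) by the number of Ehf peaks they held, with the count of the Hox window as a coloured line. The line of HoxD at 11 lies beyond the last point at 9, that of HoxA at 8 lies near the end, and those of HoxB at 6 and HoxC at 3 lie inside the range.

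The surroundings of the windows differed. In the 500 kb to each side of HoxD there were 2 peaks, both on the high-coordinate side, or 2.00 per Mb. The last peak before the HoxD window ended 518 kb before the first peak in it. HoxA had 8 peaks in the same flanking length (8 per Mb), HoxC 13 (13.0 per Mb) and HoxB 16 (16 per Mb), of which 12 lay on the low-coordinate side. The density in the window exceeded that of its flanks in all 4 cases, by the widest margin in HoxD. For HoxC and HoxB this rests on 3 and 6 peaks in the window, and no interval was computed against the flanks.

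**Figure D2:**
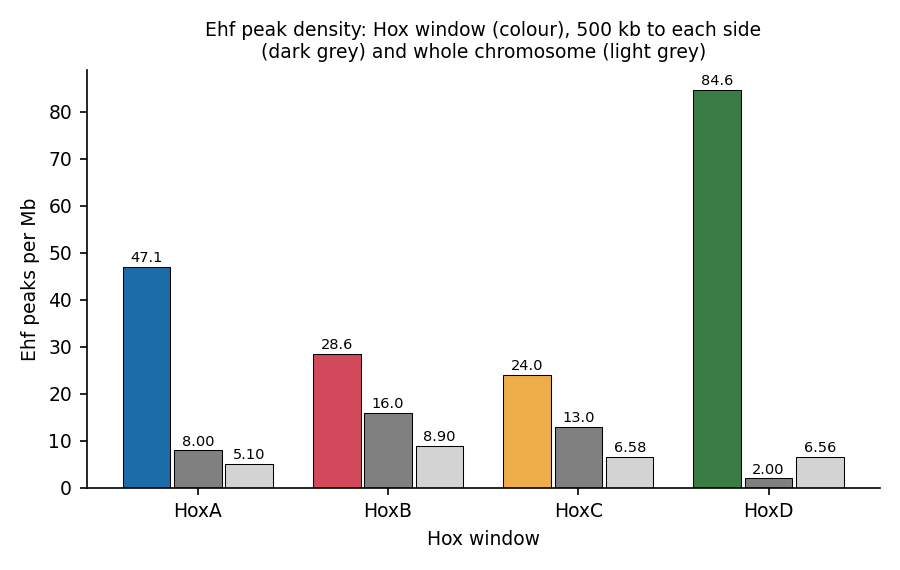
Ehf peaks per Mb (vertical axis) in each Hox window (coloured bar), in the 500 kb to each side of it (dark grey bar) and on its whole chromosome (light grey bar). HoxD had 84.6 per Mb in the window and 2.00 in its flanks, while HoxB had 28.6 and 16.

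In HoxD the peaks lay towards the low-coordinate side, where the table of GRCm38.p6 begins with Hoxd13, Hoxd12 and Hoxd11, genes of the digits and the genital region. Of the 11 peaks, 9 had their midpoint below the centre of the window. They were not placed against these genes, and some may lie beyond Hoxd13. A group of 3 opened the series, chr2:74493400-74494038 with a score of 94.46, chr2:74495825-74496086 with 65.26 and chr2:74497031-74497433 with 67.26. The score is the authors' value for each peak, whose meaning is not stated, and the median of the whole list was 86.2. The latter pair was 945 bp apart, and of the 3 the first was above that median.

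Farther along HoxD, chr2:74505995-74506608 scored 77.83 and chr2:74511085-74511427 scored 78.77, both below the list median. The next peaks, chr2:74520653-74521193 with 106.29 and chr2:74535974-74536564 with 104.11, were above it. Near the middle of the window a pair lay 138 bp apart, the closest of any in the 4 windows. In this pair chr2:74542844-74543197 scored 62.51, the lowest score in HoxD, and chr2:74543335-74544069 scored 184.51, the highest, with a width of 734 bp that also made it the widest there. Beyond the pair the peaks thinned out. The peak chr2:74565383-74565736 scored 83.5 and followed a gap of 21.3 kb, and the last, chr2:74600783-74601207, scored 121.68 after 35.0 kb, the longest gap of the cluster. The median gap in HoxD was 7.42 kb. When peaks up to 1 kb apart were joined, HoxD held 9 regions, and no other window of its length on chromosome 2 held more than 8. With the peaks at or above the list median alone HoxD kept 5, which 19 of 17798 other windows (0.107%) reached, with at most 6.

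In HoxA the peaks also lay towards the low-coordinate side of the window. There the order of the genes is the opposite, and the table of GRCm38.p6 begins with low-numbered genes. These include Hoxa2 and Hoxa3, which act in the hindbrain and the pharyngeal arches. Of the 8 peaks, 7 had their midpoint below the centre of the window. That centre need not be the centre of the genes, so the side of a peak does not tell which genes it lies near. The first, chr6:52101286-52101685, scored 152.63. It was followed by chr6:52108306-52108679 with 85.42, the lowest score in HoxA, and by the narrow peak chr6:52110384-52110536 with 107.94 at 1.71 kb from it, the closest pair of that cluster.

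The highest scores in HoxA came next. The peak chr6:52125476-52126184 scored 159.91, and chr6:52141287-52142059 scored 201.68, the highest score of the 28 members, with a width of 772 bp, the widest of the 28. Then came chr6:52153803-52154221 with 90.8 and chr6:52183952-52184680 with 134.3. A stretch of 76.9 kb without a peak separated the latter from chr6:52261543-52261697, which scored 135.94 and was 154 bp wide. The HoxA members together ran over 160 kb of the 170 kb window. All HoxA peaks but one were at or above the list median, and the exception was the 85.42 above.

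The HoxB peaks were spread more evenly over their window, with 3 on each side of its centre and a median gap of 26.6 kb. Hoxb13, known for its role in the prostate, stands at the low-coordinate side of this cluster and far from its neighbours, and the other genes follow from Hoxb9 to Hoxb1. The first peak, chr11:96060026-96060344, scored 60.15, and the second, chr11:96071373-96071571, scored 129.9, the highest of HoxB, with a width of 198 bp. After 63.2 kb without a peak, chr11:96134786-96135173 scored 54.28, the lowest of the 28 members, and chr11:96143940-96144233 scored 74.66 at 8.77 kb from it, the closest pair in HoxB. The last were chr11:96180120-96180586 with 65.54 and chr11:96207139-96207666 with 73.58, the widest of HoxB at 527 bp. All HoxB peaks but the second were below the list median. With the peaks at or above that median alone, HoxB kept 1 peak, its density was 1.11 times that of chromosome 11, and 52.8% of the other windows held at least as many.

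HoxC had the fewest peaks, and none of its 3 had another within 10 kb. The first, chr15:102751452-102752001, scored 139.73, was 549 bp wide, the widest of HoxC, and lay 6.73 kb from the low-coordinate edge of the window, the side of Hoxc13, a gene of hair and nail formation. The second, chr15:102786009-102786439, scored 90.8 and was 34.0 kb from the first. The last, chr15:102862708-102862857, scored 171.93, the highest of HoxC, was 149 bp wide, the narrowest of the 28, and followed a gap of 76.3 kb. All 3 were above the list median. Among peaks at or above that median, 2.46% of the other windows on chromosome 15 held 3 or more.

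**Figure D3:**
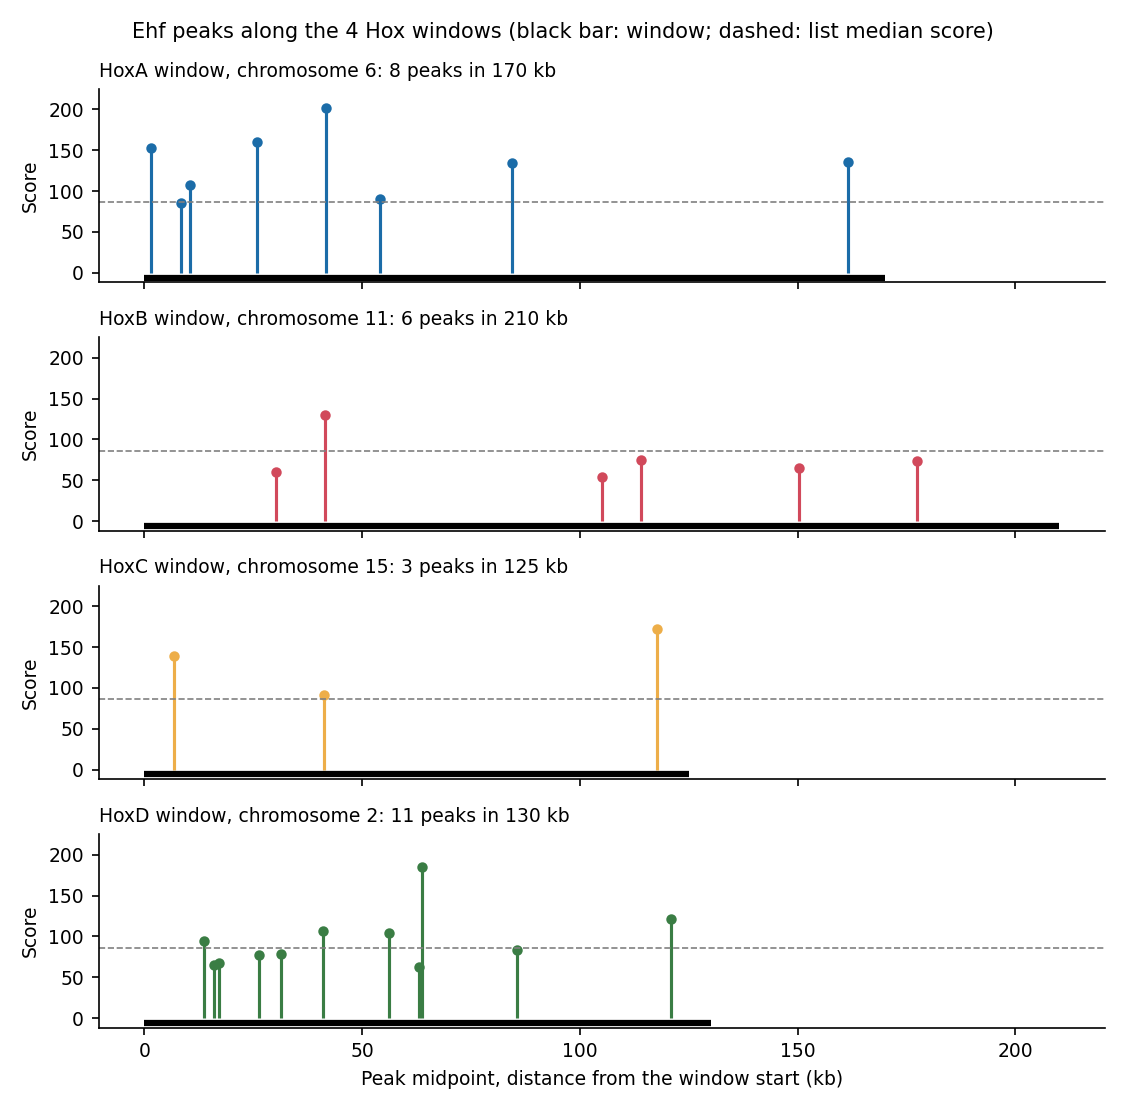
Position of each Ehf peak (midpoint, in kb from the start of the window) and its deposited score (height) in the 4 Hox windows, with the window as a black bar and the median score of the whole list (86.2) as a dashed line. The peaks of HoxD and HoxA crowd the left side of their windows, and all HoxB peaks but one stay under the dashed line.

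The order of the clusters by score was not that by count. The median score was 139.73 in HoxC (range 90.8 to 171.93), 135.12 in HoxA (85.42 to 201.68), 83.5 in HoxD (62.51 to 184.51) and 69.56 in HoxB (54.28 to 129.9), and the 4 ranges overlapped. With peaks under 200 bp left out, the median was 143 in HoxA and 115 in HoxC, where 2 peaks remained, so these clusters changed places. The medians of the whole chromosomes were close together, from 84.3 on chromosome 11 to 85.3 on chromosome 6. At or above the list median stood 7 of 8 peaks in HoxA, 3 of 3 in HoxC, 5 of 11 in HoxD and 1 of 6 in HoxB, against 50.1% of all peaks. Scores in the whole list differed by width, with medians of 140.02 under 200 bp and 78.69 from 200 bp up. With peaks of 200 bp or more alone, the medians of HoxA (143), HoxC (115) and HoxD (83.5) were above 78.69. That of HoxB (65.54) was below it. The list median thus ranks the clusters partly by the narrow peaks they hold. Limited to peaks at or above the list median, the density ratio to the chromosome was 16.3 in HoxA and 11.9 in HoxD. The order of these 2 clusters thus turned at that limit, on 7 and 5 peaks. With peaks of 200 bp or more alone the ratios were 8.84 and 16.2, in the same order as with all peaks.

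Over all 4 windows the members had a median score of 92.6. A score at or above the upper quartile of the list (125) was found in 9 of 28 members, against 25.1% of all peaks. These were 5 in HoxA, 2 in HoxC and 1 each in HoxB and HoxD. None reached the 99th percentile of the list (332), and the highest member, at 201.68, stood at percentile 93.9. The Hox peaks were thus spread over the low, middle and upper range of the list. So few peaks of the list reach its 99th percentile that their absence among 28 members is no trait of the Hox peaks.

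Widths ran from 149 to 772 bp, with a median of 410 bp against 368 bp for the whole list. A width at or above the upper quartile of the list (450 bp) was found in 11 of 28 members, against 25.1% of all peaks, 5 of them in HoxD, 3 in HoxA, 2 in HoxB and 1 in HoxC. Members under 200 bp numbered 4 of 28, against 22.0% of all peaks, 2 in HoxA, 1 in HoxB, 1 in HoxC and none in HoxD. Their scores ran from 107.94 to 171.93, while narrow peaks of the whole list had a median of 140.02. The covered share of the window was 4.04% in HoxD, 2.18% in HoxA, 1.04% in HoxB and 0.902% in HoxC.

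**Figure D4:**
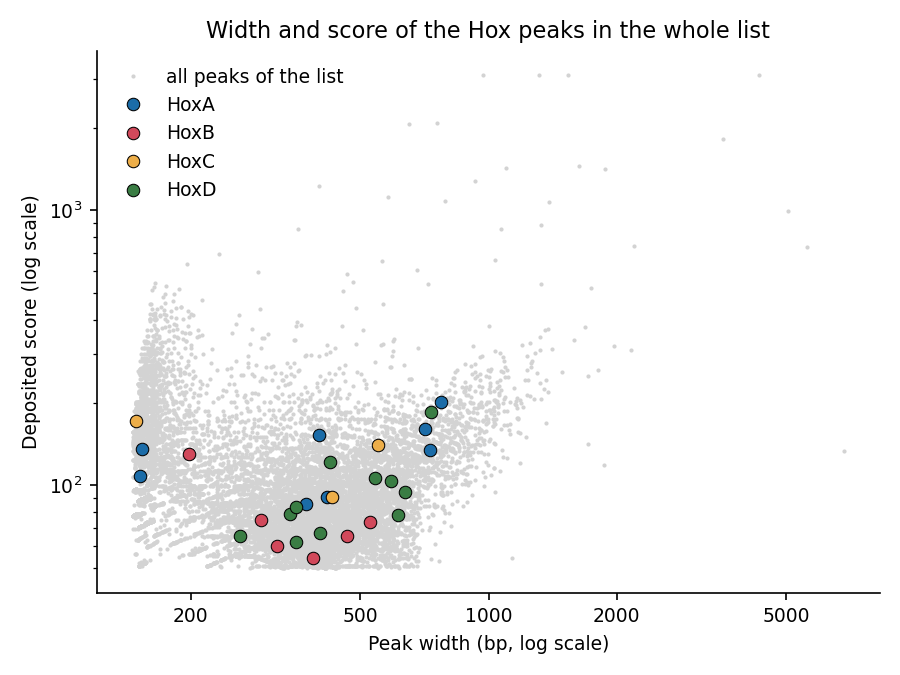
Peak width (bp, log scale) against deposited score (log scale) for all 15384 peaks (grey points) and the 28 Hox members (coloured by cluster). The members lie inside the main cloud, 4 of them among the narrow peaks under 200 bp, and none reaches the highest scores.

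Peaks in HoxD lay closer together than in the other windows. Another peak lay within 10 kb of 14 of the 28 members, against 27.2% of all peaks, and these were 9 of 11 in HoxD, 3 of 8 in HoxA, 2 of 6 in HoxB and 0 of 3 in HoxC. Since the windows were chosen with the peak positions known and the members were selected on those positions, this share describes the members and is no independent measure.

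The edges of the windows decided some of these counts. Just outside HoxA, chr6:52095868-52096238 with a score of 170.36 had its midpoint 3.95 kb before the edge, and chr6:52276963-52277278 with 101.97 lay 7.12 kb after it, while the nearest members inside lay 1.49 and 8.38 kb from the edges. The first of these outside peaks was 5.05 kb from the first member of HoxA, less than 6 of the 7 gaps between HoxA members. Around the other windows the nearest outside midpoint lay 54.3 kb from the edge for HoxD (chr2:74664046-74664455, score 69.53), 66.6 kb for HoxC (chr15:102936489-102936706, score 87.25) and 127 kb for HoxB (chr11:96366669-96367086, score 112.08). On their other sides these distances were 505 kb for HoxD, 168 kb for HoxC and 143 kb for HoxB. With windows narrower by 20 kb at each end, 4 peaks were counted in HoxA, 1 in HoxC and 7 in HoxD, and with windows wider by 20 kb HoxA had 10 while the other 3 windows gained none.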

How the data were processed

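One deposited peak list of the Ehf ChIP library was analysed. The input library has no values here. Each peak has a start and an end in bp and a score, which the authors deposited without stating its meaning, and which was used only to describe and rank peaks within the list. Bowtie 0.12.7, bedtools 2.11.2 and mm9 appear in the submitters' processing notes, and the peak names begin with MACS_peak. How the caller was set, its version and its use of the input are not stated in the sources used here. Positions are printed as in the file, whose starts may be off by 1 bp.

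The members, windows and gene lists were chosen with earlier results of these data known. A peak belonged to a window by its midpoint. In place of random windows, all windows of equal length on the chromosome were counted, so no chance test was made. Chromosome lengths of mm9 came from GenomeInfoDb 1.38.1. Gaps were measured edge to edge. Every member was counted. Named by rule were the 3 highest-scoring, the widest, the first and the last peak of each window, the closest pairs, the longest gaps and the nearest outside peaks, and the rest were added so that every member is shown. Alternatives were another way of assigning peaks, a score limit, joined peaks, narrow peaks left out, shifted edges, another chromosome length and windows without overlap. The window shares with joined peaks, with the score limit and with empty windows left out were added after seeing the data. The counting was checked on simulated peak positions. Python 3.11.15, numpy 2.4.6, pandas 2.3.3, scipy 1.17.1 and matplotlib 3.10.9 were used. One gene is not reported here.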

Additional observations from a re-analysis of the deposited data

How the results depend on the processing

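The order of the clusters depends on edges set by hand, on an unknown depth and on 3 to 11 peaks a window. Counts were compared by a factor of 1.5, and ratios, shares and medians by the binomial interval of the reported value. By this rule 17 of 92 values under alternatives moved. For shares of windows, which overlap and are not independent, that interval is too narrow. With windows narrower by 20 kb at each end the count was 4 in HoxA, 1 in HoxC and 7 in HoxD. With scores at or above the list median it was 1 in HoxB and 5 in HoxD, and the density ratio of HoxB was 1.11. At that limit the share of other windows with at least as many peaks was 0.0206% for HoxA, 52.8% for HoxB, 2.46% for HoxC and 0.107% for HoxD. With peaks up to 1 kb apart joined it was 0.0617% for HoxA, 6.06% for HoxB and 9.05% for HoxC, and with empty windows left out 0.362%, 10.49% and 24.6%. Windows without overlap gave 6.43% for HoxB. For fewer peaks or windows the cause lies in the setting itself, and others were not tested. The intervals of the median score span the whole range of members in HoxA, HoxB and HoxC, so medians under alternatives say nothing about stability there. The largest shift was in HoxB, from 69.56 to 129.9 for its 1 peak at or above the list median. No paired analysis was possible because there is only 1 library of each kind.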
